A study of Mus musculus with 28 samples.

Results

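Of the 203210 promoter contacts in the range analysed, 8579 (4.22%) were listed at 0h and 1h of Pre-B cell conversion and at neither 12h nor 48h. A contact is a pair of HindIII restriction fragments on 1 chromosome, the bait (a fragment captured because it holds promoters) and a fragment that is no bait, with 50 kb to 1 Mb between their midpoints. These 8579 pairs are called early-only contacts below. They were chosen by their presence in the 0h and 1h lists and their absence from the 12h and 48h lists, so presence, the 0h score and the 1h value describe them and test nothing. For comparison, 33316 contacts were listed at all 4 time points and 9342 were late-only, listed at 12h and 48h and at neither 0h nor 1h.

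The study used C10 cells, a HAFTL-derived mouse Pre-B line that carries the CEBPalpha-ER transgene, in which C/EBPα is joined to an estrogen receptor domain and becomes active on hormone. The groups were 0h (uninduced) and 3 times after induction (1h, 12h and 48h), with β-estradiol at 100 nM, IL-3 at 10 nM and CSF-1 at a dose the labels do not state, and all samples carry the transgene. Promoter Capture Hi-C (PCHi-C) was deposited as 1 list per time point, merged by the authors from 2 biological replicates, so no contact has a replicate error. RNA-seq was deposited as TPM, a length-scaled share of the transcripts of a library, of 3 biological replicates per time point, 12 libraries in all. The 4 lists held between 93765 and 109137 contacts in the range, at between 11719 and 12096 baits.

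In PCHi-C, fragments that lie close together in the nucleus are cut, ligated and sequenced, and probes enrich the ligation products that hold a promoter. Promoters contact distal regions over long distances, and these contacts can be shared by many cell types or belong to one lineage. C/EBPα is a transcription factor that turns B cell precursors into macrophages by silencing the B cell program and activating myeloid genes.

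Markers of both cell types changed in the RNA. Summed TPM of 11 Pre-B markers was 302 to 344 in the 0h libraries and 30.0 to 41.9 in the 48h libraries, and 10 of the 11 passed the test as lower at 48h. Summed TPM of 9 macrophage markers was 12.8 to 13.7 in the former and 1014 to 1192 in the latter, and 9 of 9 passed as higher. Of all genes tested, 23.1% passed as lower and 13.5% as higher at 48h. Granulocyte markers summed to at most 0.54 TPM at 0h to between 9.64 and 17.0 TPM at 12h and to between 1.85 and 4.54 TPM at 48h, with Mpo and S100a9 at 0 in every library, and T cell markers summed to at most 0.18 TPM in any library, with Cd3e, Cd3g and Cd4 at 0. Fewer cells of a type and less RNA per cell cannot be told apart in these bulk samples.

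Sequences are shown for the non-bait fragments of 3 of the early-only contacts with the highest 0h scores, and for 3 fragments that had early-only contacts to 6 baits each. Each is a stretch of 200 bases from GRCm38 (mm10), plus strand, that overlaps no annotated exon and no base soft-masked as a repeat in the reference. It was placed where such a stretch matched the most different motifs out of 6 short ones. Ties went to the stretch with the most matches, and then to the one closest to the fragment centre. Capitals mark the matches. The motifs, searched on both strands, were TTGCNNAA (C/EBP), CCCNNGGGA (EBF), CAGGTG (the E-box bound by E proteins), GAGGAAGT (PU.1), TGTGGTT (RUNX) and CAGGGGGC (part of the CTCF motif). Because the stretches were placed by their matches, the matches are a description.
Spata6 contact, chr4:111884391-111884590: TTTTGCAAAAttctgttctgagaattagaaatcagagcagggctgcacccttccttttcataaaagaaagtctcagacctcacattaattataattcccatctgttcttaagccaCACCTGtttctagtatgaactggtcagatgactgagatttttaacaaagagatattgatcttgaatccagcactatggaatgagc
Foxc1 contact, chr13:32606042-32606241: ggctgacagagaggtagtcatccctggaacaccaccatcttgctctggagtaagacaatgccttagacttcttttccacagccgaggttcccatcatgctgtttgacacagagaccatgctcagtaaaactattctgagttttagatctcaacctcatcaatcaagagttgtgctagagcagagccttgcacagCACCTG
Id2 contact, chr12:25438724-25438923: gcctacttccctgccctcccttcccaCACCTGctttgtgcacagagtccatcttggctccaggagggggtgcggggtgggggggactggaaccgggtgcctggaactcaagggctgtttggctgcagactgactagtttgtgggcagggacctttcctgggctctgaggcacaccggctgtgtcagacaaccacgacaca
Fragment shared by Clasrp near Apoc2, chr7:19669587-19669786: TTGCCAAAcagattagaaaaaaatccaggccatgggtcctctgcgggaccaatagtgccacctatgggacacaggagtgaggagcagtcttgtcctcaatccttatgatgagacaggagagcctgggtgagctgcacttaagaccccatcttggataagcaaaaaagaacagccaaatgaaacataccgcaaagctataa
Fragment shared by Clasrp in Ercc1, chr7:19345246-19345445: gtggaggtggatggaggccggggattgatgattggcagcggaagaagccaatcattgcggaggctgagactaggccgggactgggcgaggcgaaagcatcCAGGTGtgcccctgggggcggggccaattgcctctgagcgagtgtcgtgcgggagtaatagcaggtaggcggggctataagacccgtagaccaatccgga
Fragment shared by Wdr74 and Mta2, chr19:8801131-8801330: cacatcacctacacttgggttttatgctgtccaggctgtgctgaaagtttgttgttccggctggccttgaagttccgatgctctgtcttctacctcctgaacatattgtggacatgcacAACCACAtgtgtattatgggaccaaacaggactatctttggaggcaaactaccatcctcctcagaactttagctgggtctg

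The stretch at the Spata6 contact lies in an intron of Slc5a9 and holds 2 overlapping C/EBP matches and 1 E-box. The stretch at the Id2 contact lies in an intron of Gm36723, the one in Ercc1 lies in that gene between its exons, and the other 3 overlap no annotated gene. Of 99641 non-bait fragments of at least 200 bases in any list, the central 200 bases held an E-box in 13.4%, a C/EBP match in 8.11%, a RUNX match in 5.39%, an EBF match in 2.24%, a PU.1 match in 1.35% and the CTCF letters in 0.566%.

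Of the 55391 contacts listed at both 0h and 1h, 15.5% (Wilson 95% interval 15.2 to 15.8) were in neither later list, 12.2% were also listed at 12h alone, 12.2% at 48h alone and 60.1% at both. The mirrored share was close: of the 56672 contacts listed at both 12h and 48h, 16.5% (16.2 to 16.8) were in neither early list. Among the patterns with exactly 2 lists, 0h with 1h (8579 contacts) was less frequent than 0h with 48h (8953) and 12h with 48h (9342), and more frequent than 1h with 12h (6511), 1h with 48h (5185) and 0h with 12h (4117). Intervals of shares cover counting error only, since each time point is 1 list.

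Early-only contacts had low 0h scores. The 0h list gives CHiCAGO scores, which rate a contact against a background that falls with distance, and its lowest score was 5. The median score was 6.33 for early-only contacts and 9.16 for contacts kept at all 4 time points, and 39.9% of the former lay below 6 beside 12.3% of the latter. The 1h list gives whole numbers whose unit it does not name, taken as read pairs, with medians of 13 and 21. The highest 0h score of an early-only contact was 27.0 and 546 had a score of at least 10. At the distance limits, the nearest contact inside the lower limit spanned 50023 bp with a 0h score of 6.29, and the nearest one outside spanned 49984 bp with a score of 5.54. At the upper limit the values were 996391 bp with a score of 5.58 inside and 1000332 bp with a score of 8.27 outside. With the same list pattern, 1113 pairs lay below the lower limit and 242 above the upper one.

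Early-only contacts spanned longer distances than the other classes. Their median distance was 227 kb (quartiles 139 and 345 kb), against 176 kb for late-only contacts, 180 kb for contacts kept at all 4 time points and 213 kb for all contacts. The share of contacts listed at 0h and 1h that were early-only was higher in the longer bands. It was 12.0% (11.4 to 12.6) at 50 to 100 kb, 13.0% (12.5 to 13.4) at 100 to 200 kb, 17.9% (17.4 to 18.4) at 200 to 500 kb and 23.8% (22.4 to 25.3) at 500 to 1000 kb. The late-only share had no such order, with 18.1%, 16.0%, 16.0% and 17.6% in the same bands. Median 0h scores of the contacts listed at 0h and 1h were alike across the bands, at 7.72, 7.93, 7.89 and 8.35, while their median 1h values went from 29 to 11. Among contacts with a 0h score of at least 10, a comparison chosen after seeing the data, the early-only share was 2.02%, 2.37%, 3.74% and 8.37%.

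**Figure D1:**
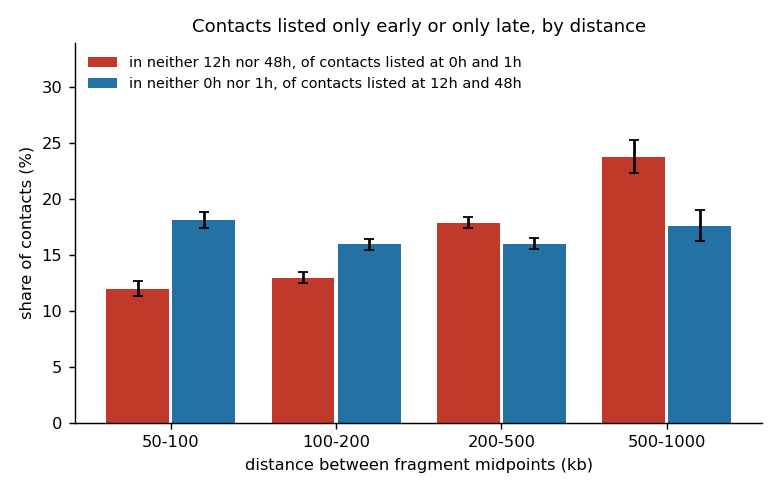
Share of contacts (percent, y axis) by distance between fragment midpoints (kb, x axis). Red bars give the share of contacts listed at 0h and 1h that were in neither later list, blue bars the share of contacts listed at 12h and 48h that were in neither early list, and error bars are Wilson 95% intervals. The red bars go from 12.0% to 23.8%, and the blue bars stay between 16.0% and 18.1%.

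Most early-only contacts had a listed neighbour later in the time course. For 73.5% (72.5 to 74.4), the same bait had a listed fragment within 10 kb of the lost one at 12h or 48h, and for 51.1% within 5 kb. For late-only contacts, the mirrored share within 10 kb at 0h or 1h was 70.6% (69.7 to 71.5). The remaining 2275 early-only contacts had no such neighbour. The bait itself was in both later lists for 98.1% of the early-only contacts and in neither for 29 of them. These baits thus still had listed contacts at 12h and 48h, to other fragments.

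The 5 early-only contacts with the highest 0h scores show both situations. The bait of Spata6, a gene of sperm assembly, contacted a fragment over exons and introns of Slc5a9 at 166 kb with a score of 27.0 and a 1h value of 10. A fragment 6.34 kb away was listed for the same bait at 12h and at 48h. The bait of Foxc1, a forkhead transcription factor, contacted a fragment with no annotated gene at 801 kb (chr13:32604076-32607641) with a score of 24.0 and a 1h value of 7. Here the nearest listed fragment of the same bait lay 55.2 kb away at 12h and 67.5 kb away at 48h. The bait of Gtf2a1, a subunit of the general factor TFIIA, contacted a fragment over an exon of Dio2 at 863 kb with a score of 22.4, and the nearest fragments lay 7.89 and 10.9 kb away. The bait of Id2, which inhibits E proteins, contacted the Gm36723 intron at 350 kb with a score of 22.4, and the nearest fragments lay 3.26 and 12.5 kb away. The bait of Otulin, a deubiquitinase of linear chains, contacted a fragment over an exon of Trio at 200.2 kb with a score of 21.8, and a fragment 2.76 kb away was listed at both later times. Only the Foxc1 contact of these 5 had no listed neighbour within 20 kb at either time.

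The early-only contacts reached 7406 non-bait fragments, of which 883 had early-only contacts to 2 or more baits and 204 to 3 or more. Of the 7406, 2505 also had a contact kept at all 4 time points and 402 a late-only one. A fragment of 370 bases over an exon of C730034F03Rik (chr15:89429978-89430347) had 7, to the baits of Pim3, Panx2, Trabd, Hdac10 with Tubgcp6, Hdac10, Mapk11 with Mapk12, and Lmf2 with Ncaph2. In the 4 lists, in order of time, it had 14, 14, 5 and 1 contacts. Of the fragments with 6, one over Apoc2 (chr7:19665536-19677979) had 10, 10, 2 and 2 contacts in the 4 lists, and one over Ercc1 (chr7:19344982-19346715) had 18, 13, 5 and 5. Irf2bp1 and Clasrp were among the promoters of both. The fragment of the printed chr19 stretch (chr19:8799937-8802463) had 12, 10, 5 and 3, to baits that include Wdr74, Stx5a, Ganab, B3gat3 and Mta2. A fragment over Mpdu1 (chr11:69657060-69662583) had 19, 14, 6 and 3, to baits that include Per1, Slc2a4 and Gabarap. These 5 fragments were chosen for their early-only contacts. In all 5 the remaining contacts were also fewer at 48h than at 0h. Those contacts come from the same 4 lists and the same chosen fragments, so their numbers are a description and test nothing.

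The early-only contacts were spread unevenly over the baits. Of 15480 baits with a contact in the range, 4217 (27.2%) had an early-only contact, 2339 of these had 1 and 342 had at least 5. The 1536 baits with 2 to 4 held 3905 of the early-only contacts. A bait with at least 5 early-only and at most 1 late-only contact is called early-leaning, and its mirror late-leaning. The 296 early-leaning baits (1.91% of the baits) held 2035 (23.7%) of the early-only contacts, and there were 324 late-leaning baits. A high share follows from the choice of at least 5. The 296 baits were also rich in contacts, with 9646 of the 99986 contacts listed at 0h. Only 7 baits had at least 5 of both kinds. Early-leaning baits had medians of 29, 27, 15.5 and 12 contacts in the 0h, 1h, 12h and 48h lists, and late-leaning baits 11, 10.5, 20 and 29, which follows from the choice. The early-leaning baits were richer in G and C than the late-leaning ones (median 48.6% and 46%, with 47.4% over all baits, not tested).

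The bait of Clasrp, which encodes a splicing-related protein that associates with a kinase of SR proteins, held the most. It lies at chr7:19597522-19605636 and also holds the start of the non-coding gene Gm26890. It had 56, 53, 17 and 7 contacts in the 4 lists in order of time, of which 25 were early-only, 6 were kept and none was late-only. The 25 fragments lay on both sides, 15 below and 10 above the bait, at offsets from -446 kb to 183 kb, and 8 of them had no listed neighbour within 10 kb later. The bait of Cdca3, which promotes entry into mitosis, and Usp5, a deubiquitinase (chr6:124827772-124833403), had 71, 74, 47 and 28 contacts, with 18 early-only and 24 kept. Here 3 of the 18 had no listed neighbour later, and the other 15 had one.

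**Figure D2:**
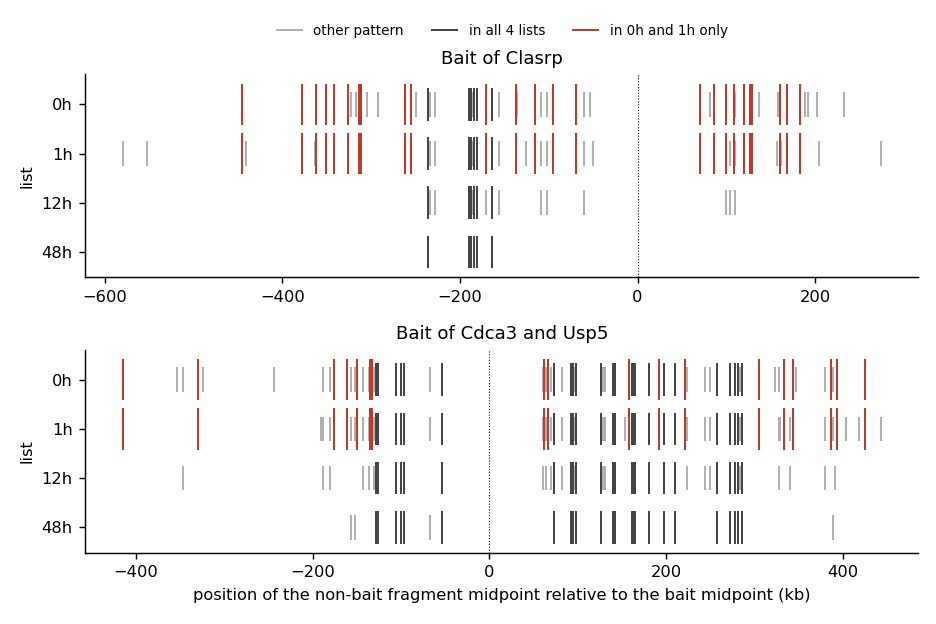
Positions of contacted fragments relative to the bait midpoint (kb, x axis) in the 4 PCHi-C lists (y axis) for the bait of Clasrp (top) and that of Cdca3 and Usp5 (bottom). Each line is 1 contact: red, listed at 0h and 1h only; black, in all 4 lists; grey, any other pattern. At Clasrp 25 red lines stand beside 6 black ones, and at Cdca3 and Usp5 18 red lines stand among 24 black ones.

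Each of the other 8 baits with the most early-only contacts had 15 or 16 of them and no late-only contact. Dhrs3, a reductase of retinal, had 65, 89, 46 and 30 contacts in the 4 lists, with 16 early-only. A bait without an annotated start, 80.2 kb from it, had 46, 51, 21 and 11, also with 16 early-only, and these baits shared 1 of the fragments. On chr15, the bait of the small nuclear RNA gene Gm23144 had 42, 52, 18 and 4 contacts, and the bait of Mapk11 and Mapk12, both p38 kinases, 309 kb away had 54, 44, 25 and 6, with 3 early-only fragments in common. Bin3, an adaptor of the BAR family, had 73, 62, 41 and 31. Rps20, a ribosomal protein gene, had 49, 45, 24 and 19. The homeobox gene Dbx1 had 52, 41, 22 and 15, and P2rx1, an ATP-gated channel, had 49, 41, 21 and 15. In all 10 baits the number was lower at 12h than at 1h and lower at 48h than at 12h. The baits were ranked by their early-only contacts, so lower numbers in the later lists follow in part from the choice and test nothing.

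**Figure D3:**
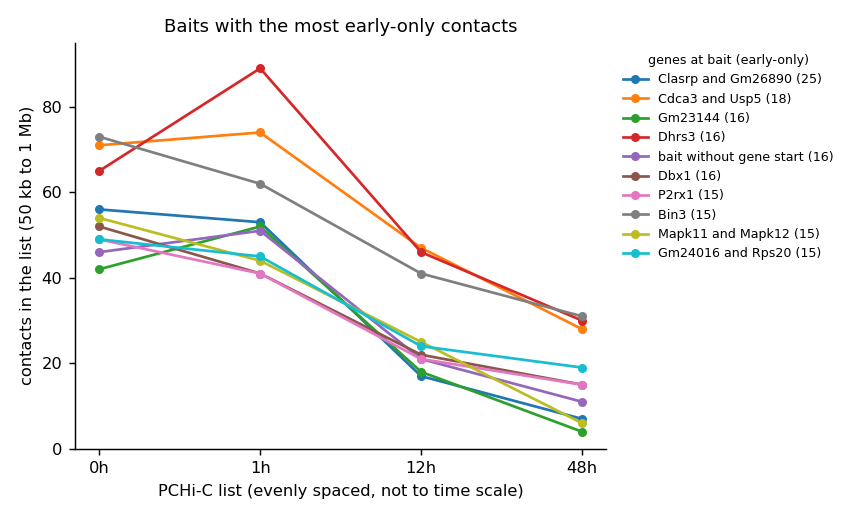
Number of contacts in the range (y axis) in each PCHi-C list (x axis, evenly spaced) for the 10 baits with the most early-only contacts, with the number of early-only contacts in brackets. The lines lie between 42 and 73 contacts at 0h and between 4 and 31 at 48h.

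Several of these baits lay in clusters. When baits were binned by 1 Mb, the 10 windows with the most early-only contacts held 726 (8.46%) of them, while the median over the 1216 windows with any was 3.5. The windows were ranked by that number, so a high count follows from the choice. The window at 30 to 31 Mb of chromosome 7 held 121 at 31 baits, led by Zbtb32 (12) and Ffar3 (10), and the window at 19 to 20 Mb of chromosome 7, with Clasrp, held 101 at 28 baits. These were 26.2% of 461 and 33.3% of 303 contacts listed at 0h and 1h, beside 15.5% over all such contacts. The window at 113 to 114 Mb of chromosome 6 held 80, led by Mtmr14 (12), Brpf1 and Ogg1 (10 each). At 35 to 36 Mb of chromosome 17, in the major histocompatibility complex, 78 early-only contacts included those of Csnk2b (8) and Aif1 (6). For the chromosome 6 window and this one, the shares were 35.6% of 225 and 26.9% of 290. The share of 0h and 1h contacts that were early-only was highest of these windows at 56 to 57 Mb of chromosome 17, with 51 of 106 (48.1%, 38.8 to 57.5) and 1 late-only contact, at baits that include Plin3, Plin5, Tnfaip8l1 and Kdm4b. By chromosome, the share ran from 12.0% on chromosome 12 to 18.6% on chromosomes 7 and X, leaving out chromosome Y with 9 such contacts.

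The RNA was not used to choose the contacts, so it can be compared across them. Genes were assigned to a bait that holds one of their transcription start sites. TPM were tested with limma on log2(TPM + 0.1) for the 16415 genes whose TPM averaged 0.1 or more, and calls were set at a p of 0.05 after Benjamini-Hochberg adjustment together with a 1-unit change on the log2 scale in either direction. Changes of low genes on this scale depend on the 0.1 added. AY036118 and CT010467.1, gene models that collect ribosomal RNA reads, together took between 70.3% and 82.9% of the TPM of a library. Median-of-ratios scaling between libraries shifted the median change over the genes tested (log2) from 0.59 to 0.02 for 1h, 0.34 to 0.07 for 12h and -0.18 to 0.07 for 48h, so calls are also given after that scaling.

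Among genes at early-leaning baits, the share lower at 48h was above the background and the share higher was below it, with the scaling and without. The 296 baits held the starts of 444 genes, of which 313 were tested, and 48 of the 131 not tested were protein-coding. At 48h against 0h, 118 of the 313 (37.7%) were lower, where 28.6% of the 10719 tested genes with a bait in the range were, and 23 (7.35%) were higher, where 11.7% were. Over all genes tested the shares were 23.1% and 13.5%. The median log2 fold change was -0.57, beside -0.39 over the genes with a bait and -0.18 over all genes tested. After median-of-ratios scaling 91 were lower (29.1%, background 21.7%) and 39 higher (12.5%, background 17.2%), so that lower genes made up 70.0% of the calls instead of 83.7%. Late-leaning baits lay on the other side, with 40 of 259 genes lower (15.4%) and 78 higher (30.1%). The groups also differed in RNA level at 0h. The median TPM at 0h was 2.44 at early-leaning and 1.32 at late-leaning baits, beside 1.84 over genes with a bait. Whether this level bears on the shares was not tested. The 313 genes were not tested as a set. Few of these baits remained when early-only contacts with a listed neighbour within 10 kb were left out, with 8 of 18 tested genes lower and 0 higher at 48h. In the 10 windows with the most early-only contacts, the tested genes at baits with such contacts ranged from 3 of 16 lower and 1 higher (89 to 90 Mb of chromosome 15) to 8 of 18 lower and 1 higher (56 to 57 Mb of chromosome 17). With Clasrp, at 19 to 20 Mb of chromosome 7, 8 of 27 were lower and 1 higher, and at 35 to 36 Mb of chromosome 17, 12 of 36 were lower and 8 higher.

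The shares by number of early-only contacts were as follows. Lower genes made up 27.7% of the 6883 tested genes whose bait had none, 28.5% of 1997 with 1, 31.1% of 1487 with 2 to 4, 37.1% of 315 with 5 to 9 and 43.2% (16 of 37) with 10 or more. Higher genes made up 12.1%, 12.1%, 10.1%, 7.62% and 8.11%. The median TPM at 0h of these classes was 1.66, 2.01, 2.24, 2.44 and 2.23. With the scaling, the lower shares were 20.7%, 22.4%, 23.6%, 30.2% and 27.0%, and the higher shares 17.7%, 17.5%, 15.3%, 11.7% and 18.9%. Thus, with the scaling, genes with 10 or more early-only contacts had a lower share below that of 5 to 9 and a higher share above the 17.2% of all genes with a bait. Baits with many contacts at 0h were set beside them, a comparison chosen after seeing the data. Of 1024 tested genes at baits with at least 20 contacts at 0h and fewer than 5 early-only, 29.5% were lower and 11.5% higher, beside 39.3% and 7.86% of the 229 at early-leaning baits with at least 20. The first class has no limit on late-only contacts. Of its 612 genes with at most 1 late-only contact, as at early-leaning baits, 31.2% were lower and 9.80% higher. With the scaling, the lower shares were 24.3% for these 612 and 31.4% for the 229. The differences were not tested. Neighbouring genes share baits, since 74 early-leaning baits held 2 or more tested genes, so genes are not independent.

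**Figure D4:**
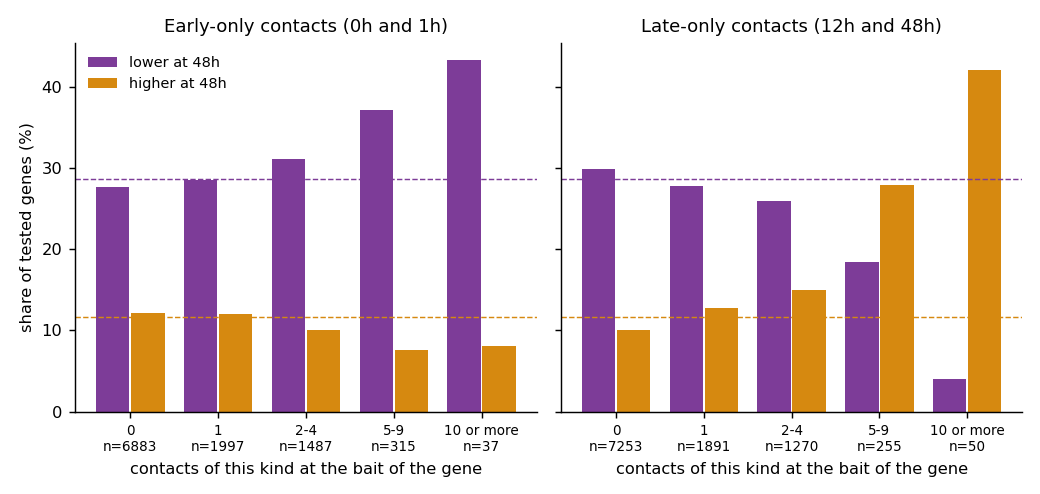
Share of tested genes (percent, y axis) called lower (purple) or higher (orange) at 48h against 0h, by the number of early-only (left) or late-only (right) contacts at the bait of the gene (x axis, with the number of genes). Dashed lines give the shares over all 10719 tested genes with a bait in the range. Lower genes go from 27.7% to 43.2% on the left and from 29.8% to 4% on the right.

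At 12h and 1h, fewer of these genes were called lower than at 48h. At 12h, 28 of 313 (8.95%) were lower and 49 (15.7%) higher, where 7.04% and 16.5% of the genes with a bait and 5.75% and 17.7% of all genes tested were. With the scaling, 48 were lower (15.3%) and 28 higher (8.95%), beside 11.6% and 10.9% of the genes with a bait. The 612 genes described above, at baits rich in contacts at 0h but with fewer than 5 early-only, had similar shares at 12h. With the scaling, 17.6% of them were lower and 9.15% higher, beside 17.0% and 7.86% of the 229 at early-leaning baits. At 1h, 3 were lower and 45 (14.4%) higher, where 1.32% and 14.1% (of all genes tested, 1.08% and 16.7%) were, and with the scaling 10 were lower (3.19%) and 9 higher (2.88%), beside 3.67% and 3.26% of the genes with a bait.

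The 8 genes with the largest decreases at early-leaning baits, named for their size, included some known for nucleotide supply, DNA replication, histones and mitosis. Rrm2, a subunit of ribonucleotide reductase with 8 early-only contacts (chr12:24703542-24715373), had 30.3, 23.1 and 20.6 TPM at 0h and 0.06, 0.32 and 0.28 TPM at 48h. Its log2 fold change was -6.38 (SE 0.33, adjusted p = 4.5e-08, limma), and its contacts numbered 30, 35, 28 and 15. Cdca3, at the bait described above, had 6.33, 7.03 and 6.15 TPM at 0h and 0, 0.12 and 0 TPM at 48h, a log2 fold change of -5.66 (SE 0.36, adjusted p = 2.6e-07, limma) that depends on the 0.1 added. Pole, the catalytic subunit of DNA polymerase epsilon, had 4.65, 4.47 and 4.34 TPM at 0h and 0.04, 0.18 and 0.07 TPM at 48h, a log2 fold change of -4.61 (SE 0.25, adjusted p = 8.0e-08, limma). Its bait (chr5:110326573-110336731) had 16, 20, 12 and 0 contacts in the 4 lists, 7 of them early-only and none kept. For these 3 genes all 48h libraries lay below all 0h libraries, which was a condition for naming them.

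A bait on chromosome 3 (chr3:96219175-96222937) holds the histone H2A genes Hist2h2ab and Hist2h2ac, with 30, 25, 10 and 14 contacts and 6 early-only. Hist2h2ac had 65.2, 66.3 and 70.1 TPM at 0h and 3.62, 3.24 and 4.91 TPM at 48h (log2 fold change -4.08, SE 0.18, adjusted p = 1.4e-08, limma). Hist2h2ab had 2.13, 3.13 and 5.81 TPM at 0h and is listed at 0 in all 3 libraries at 48h (adjusted p = 0.0002, limma). Reads of near-identical histone genes can be split between copies, so the division between these genes is uncertain.

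Txnrd3, a thioredoxin reductase, had 8.68, 7.12 and 6.45 TPM at 0h and 0.22, 0.11 and 0.16 TPM at 48h (log2 fold change -4.85, SE 0.24, adjusted p = 4.0e-08, limma). Naa10, the catalytic subunit of an N-terminal acetyltransferase, had 14.98, 13.8 and 13.7 TPM at 0h and 0.42, 0.38 and 1.07 TPM at 48h (log2 fold change -4.42, SE 0.41, adjusted p = 5.0e-06, limma). Nme1, a nucleoside diphosphate kinase, had 14.0, 10.3 and 9.65 TPM at 0h and 0.26, 0.29 and 1.87 TPM at 48h (log2 fold change -4.11, SE 0.53, adjusted p = 6.7e-05, limma). All 48h libraries again lay below all 0h libraries, by the same condition. Their baits had 5, 7 and 5 early-only contacts. Near-identical copies make the level of Nme1 uncertain. At the Txnrd3 bait the number of contacts went from 16 at 0h to 4 at 48h, and at the Nme1 bait from 33 to 23.

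Some genes at early-leaning baits were higher at 48h, when most of these baits had fewer contacts. Aif1, a calcium-binding protein of macrophages (chr17:35172336-35184711), is listed at 0 TPM in the 3 libraries at 0h and had 2.29, 1.97 and 3.17 TPM at 48h (adjusted p = 3.0e-06, limma). Its bait had 12, 13, 3 and 1 contacts. Dnase1l3, a secreted nuclease, had 0.03, 0.05 and 0.13 TPM at 0h and 2.17, 2.91 and 2.76 TPM at 48h (log2 fold change 4.03, SE 0.27, adjusted p = 4.0e-07, limma), with 35, 26, 10 and 11 contacts. Dhx58, a sensor protein of the RIG-I family, had 1.28, 0.64 and 0.73 TPM at 0h and 10.5, 13.2 and 15.4 TPM at 48h (log2 fold change 3.78, SE 0.30, adjusted p = 1.3e-06, limma). Lrp1, an endocytic receptor, had 0.88, 0.36 and 0.25 TPM at 0h and 4.15, 5.17 and 5.90 TPM at 48h (log2 fold change 3.24, SE 0.37, adjusted p = 2.7e-05, limma). In all 4 genes every 48h library lay above every 0h library, which was a condition for naming them. Each had 5 to 8 early-only contacts at 1 bait.

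**Figure D5:**
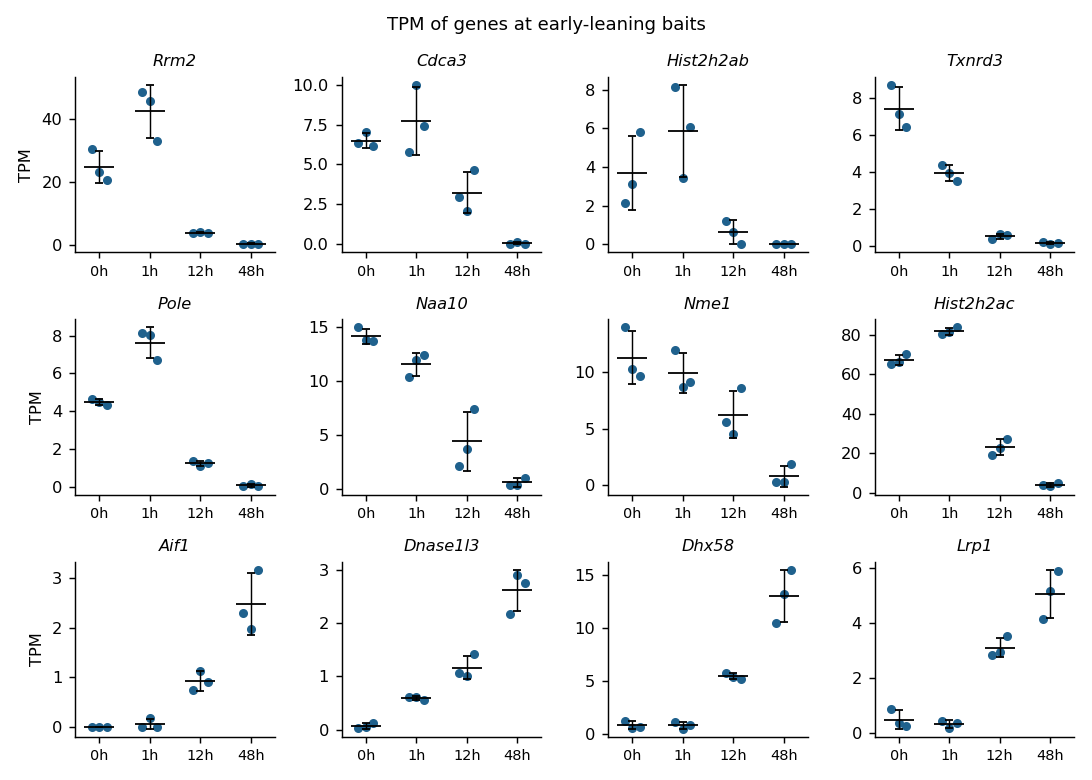
TPM (y axis, linear, a scale of its own in each panel) of 12 genes at early-leaning baits by time point (x axis). Points are the 3 libraries, lines the mean and bars the SD. The first 8 genes lie lower at 48h than at 0h, and Aif1, Dnase1l3, Dhx58 and Lrp1 lie higher.

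At the 10 baits with the most early-only contacts, the RNA went both ways. Clasrp had 3.74, 2.02 and 2.39 TPM at 0h and 0.87, 1.08 and 1.70 TPM at 48h, with a log2 fold change of -1.10 (SE 0.28, adjusted p = 0.0074, limma). It was -0.72 after median-of-ratios scaling, -0.85 without 0h replicate 1 and -0.90 without 48h replicate 1, each no longer past the fold threshold. Gm26890 overlaps Clasrp on the same strand, so their reads cannot be fully told apart. Rps20 had 78.2, 58.9 and 64.4 TPM at 0h and 15.9, 19.2 and 27.1 TPM at 48h (log2 fold change -1.72, SE 0.22, adjusted p = 5.3e-05, limma), although reads shared with its pseudogenes make the level uncertain. Dhrs3 had 1.39, 0.88 and 0.59 TPM at 0h, 11.9, 11.03 and 8.73 TPM at 1h and 5.48, 6 and 10.1 TPM at 48h. It rose by a log2 fold change of 3.40 at 1h (SE 0.31, adjusted p = 4.0e-05, limma), when its bait was listed with 89 contacts, and stayed higher at 48h (log2 fold change 2.81, SE 0.31, adjusted p = 1.8e-05, limma), when it had 30. Usp5 (log2 fold change -0.81 at 48h), Bin3 (0.07), Mapk11 (-0.08, and 0.30 with the scaling) and Mapk12 (1.14) were not called at 48h. At 12h, Mapk11 passed as higher (log2 fold change 1.49, adjusted p = 0.0012, limma), and so did Bin3 (1.23), whose call was lost with the scaling (0.90). Dbx1 and P2rx1 had at most 0.05 TPM in any library, while their baits had 52 and 49 contacts at 0h.

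At the baits of the 5 contacts with the highest 0h scores, the RNA also differed in direction. Id2 had 0.36, 0.50 and 0.39 TPM at 0h and 2.76, 4.12 and 2.85 TPM at 48h (log2 fold change 2.68, SE 0.22, adjusted p = 2.0e-06, limma). Its bait had 6 early-only and 7 late-only contacts, so it was not early-leaning. Foxc1 had 0.88, 0.59 and 0.52 TPM at 0h and 0.23, 0.27 and 0.26 TPM at 48h (log2 fold change -1.08, SE 0.24, adjusted p = 0.0035, limma), and was no longer called with the scaling (-0.79) or without 0h replicate 1 (-0.89). Spata6 had 3.87, 2.59 and 1.95 TPM at 0h and 6.31, 6.39 and 4.90 TPM at 48h (log2 fold change 1.08, SE 0.33, adjusted p = 0.018, limma). Its call was lost without 0h replicate 2 or 3, or without 48h replicate 1 or 2 (between 0.86 and 1.05). Gtf2a1 (-0.18, and 0.22 with the scaling) and Otulin (-0.62) were not called.

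In the gene lists used for the conversion, early-only contacts were not confined to genes that fell. Over all genes with a bait in the range, 29.3% had an early-only contact. Over all genes tested, 23.1% were lower and 13.5% higher at 48h. Of 15 B-lineage transcription factors, 11 had at least 1, with 25 early-only, 30 late-only and 146 kept contacts in all, while 14 of the 15 were lower at 48h (median log2 fold change -2.91). Bach2, a transcriptional repressor, had 7 early-only, 6 late-only and 33 kept contacts, and Id3, an inhibitor of E proteins, had 4 early-only and no late-only contact. Of 14 baited Pre-B receptor and signalling genes, 6 had early-only contacts, 14 in all, and 3 had late-only contacts, 3 in all, while 13 of the 16 tested were lower (median -2.98). Il7r, the receptor chain for interleukin 7, had 27, 8, 4 and 12 contacts in the 4 lists, with 4 early-only. Of 14 baited genes of DNA replication and the cell cycle, 6 had early-only contacts, 13 in all, and 6 had late-only contacts, 11 in all. Among those with early-only contacts were Mcm6 (4), a helicase subunit, and Cdc6 (3) and E2f2 (3). In this list 17 of the 17 tested were lower at 48h (median -4.43). Of 13 baited genes of chromatin organisation, 4 had early-only contacts, 7 in all, and 4 had late-only contacts, 4 in all. Of the 15 tested, 9 were lower (median -1.52).

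Macrophage and myeloid genes had fewer early-only than late-only contacts, with 12 at 3 genes and 43 at 9 genes of the 16 baited. The list includes Btg1, Ccl7 and Ccl12 (9, 1 and 1 late-only contacts), which the study named for gained contacts on these samples. Mmp12 held 19 of the 43 and Tlr2 8. The difference between early-only and late-only numbers was thus partly set by the choice of genes and was not tested. At 48h, 15 of 16 tested were higher and 1 was lower (median 5.52), where 13.5% and 23.1% of all genes tested were. The lower one was Cebpa. The study reported expression from the rat transgene and none from the endogenous mouse copy, so this value does not describe an endogenous gene. Cebpb, a myeloid transcription factor, had 7 early-only contacts and no late-only contact (chr2:167681776-167692188), with 14, 24, 15 and 6 contacts in the 4 lists. Its RNA was 2.94, 2.72 and 2.45 TPM at 0h and 11.4, 11.1 and 26.7 TPM at 48h (log2 fold change 2.43, SE 0.31, adjusted p = 6.6e-05, limma). Fcgr1, a receptor for immunoglobulin G, had 4 early-only contacts and no late-only contact, with 14, 12, 7 and 7 contacts. Genes with no detected RNA also had them. Mpo, a granulocyte gene at 0 TPM in every library, had 7, with 20, 16, 3 and 2 contacts, and Cd4, also at 0, had 5 at a bait (chr6:124841907-124870780) in the same 1 Mb window as that of Cdca3, with 17, 16, 11 and 13. Over their lists, 3 of 7 baited granulocyte markers had early-only contacts, 10 in all, 1 of 4 baited T cell markers had them, and neither list had a late-only contact.

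Of 6 genes taken from those that the study names, 3 had early-only contacts. Clcf1, a cytokine, had 4 at 2 adjacent baits, with 26, 24, 11 and 9 contacts, and 3.45, 1.40 and 2.33 TPM at 0h and 0.50, 0.69 and 1.59 TPM at 48h (log2 fold change -1.34, SE 0.44, adjusted p = 0.028, limma). The TPM overlapped between these time points, and the call was lost after median-of-ratios scaling (-0.98) and without 0h replicate 1 (-1.04) or 0h replicate 3, 48h replicate 1 or 48h replicate 2 (between -1.31 and -1.02). Suz12, a subunit of Polycomb repressive complex 2, had 1, with 9, 2, 0 and 0 contacts, and 10.4, 9.16 and 9.69 TPM at 0h and 3.32, 2.02 and 2.73 TPM at 48h (log2 fold change -1.85, SE 0.20, adjusted p = 1.8e-05, limma). Pax5, the factor that maintains B cell identity, had 1, with 32, 11, 11 and 22 contacts, with the lowest numbers at 1h and 12h. Its RNA was 17.0, 17.5 and 16.9 TPM at 0h and 2.83, 3.85 and 4.50 TPM at 48h (log2 fold change -2.19, SE 0.18, adjusted p = 1.8e-06, limma). Btg1, Ccl7 and Ccl12 had no early-only contact. Of the 5 tested, 3 were lower and 2 higher at 48h (median -1.34), where 23.1% and 13.5% of all genes tested were. The study chose these 6 genes on these samples.

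At the other end of the contacts, the non-bait fragments were richer in genes and in G and C. Of the 7406 fragments, 15.4% (14.6 to 16.2) held a transcription start site, beside 12.3% (11.7 to 13.0) of 8698 late-only and 13.3% (12.9 to 13.7) of 23688 kept fragments and 12.2% of all 99904. An exon was in 43.9%, only intron in 28.2% and no gene in 27.8%. Median GC content was 44.9%, beside 43.5% for late-only, 44.3% for kept and 43.6% for all fragments, and median length was 2545 bases, beside 2549 for all. Of the 2618 tested genes whose bodies these fragments overlap, 722 (27.6%) were lower and 313 (12.0%) higher at 48h. The shares were 26.1% and 12.6% for genes over kept fragments and 23.6% and 15.5% for genes over late-only fragments. Of all genes tested, 23.1% were lower and 13.5% higher. The early-only shares were thus close to those over kept fragments, and the differences were not tested.

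Within the central 1000 bases of fragments at least that long, the E-box was found in 55.0% (53.8 to 56.3) of the early-only fragments and in 51.1% of all fragments, and the C/EBP letters in 32.9% (31.7 to 34.1) and 34.3%. Fragments were also split into 3 bands of GC content, a comparison chosen after seeing the data. At 42 to 46% GC, the E-box was in 53.1% (50.9 to 55.2) of the early-only and 51.1% (50.5 to 51.7) of all fragments, and the C/EBP letters in 33.7% (31.7 to 35.8) and 34.1% (33.5 to 34.7). For both motifs these intervals overlapped in all 3 bands. Without the bands, the EBF letters were in 11.8% and 10.8%, RUNX in 25.8% and 24.5%, PU.1 in 7.10% and 6.48% and the CTCF letters in 3.26% and 2.90%.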

How the data were processed

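Promoter Capture Hi-C lists were deposited per time point, each called by the authors with CHiCAGO on 2 merged replicates at a score cut-off of 5 (HindIII fragments, mm10). The deposited 0h list holds the score, and the deposited 1h, 12h and 48h lists hold whole-number counts, taken as read pairs because no unit is named, so the values of the lists were not compared across time points. RNA-seq values are TPM that the authors computed with RSEM, and the submitters' processing notes name Trim Galore 0.6.2, HISAT2 2.1.0 and FastQC. TPM values hold no depth. The study refers to a supplement for sequencing depth, which was not used here.

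A fragment was a bait if it was the first fragment of a pair in any list, and pairs were counted without order. Distances ran between midpoints from 50 kb to 1 Mb. The members, the gene lists and the tests were chosen with earlier results of these data known. Fragments were annotated with GENCODE M21 on GRCm38. Shares have Wilson 95% intervals, which cover counting error only.

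The test was that of limma (version 3.58.1, R 4.3.3) on log2(TPM + 0.1), with all 12 libraries in 1 fit, for genes whose TPM averaged 0.1 or more. Benjamini-Hochberg adjustment ran over all genes tested, and calls were set at an adjusted p of 0.05 together with a 1-unit change on the log2 scale. The labels call the libraries biological replicates and name no separate cultures, so p-values measure the spread between these libraries. The fit was tested on simulated data.

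Named genes were list genes whose bait had at least 5 early-only contacts, genes at the 10 baits with the most, the 8 largest decreases and 4 largest increases at early-leaning baits (mean TPM of at least 1, no overlap between 0h and 48h), 6 of the genes named by the study, and genes at the 5 contacts with the highest 0h score. The 5 fragments with early-only contacts to the most baits were named too. Other list genes, the genes given for windows and the 6 printed sequences were chosen after values were seen. The Hi-C data were not analysed here.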

Additional observations from a re-analysis of the deposited data

How the results depend on the processing

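The number of early-only contacts was 8579, and 2954 with a 0h score of at least 7, 546 with at least 10 and 2275 when contacts with a same-bait fragment listed within 10 kb later were left out. It was 15315 with 48h as the only late list and 33011 with 0h as the only early list. It stayed between 8442 and 9934 without distance limits, with distances between fragment ends and with baits taken from the early lists. The share with a listed neighbour was 51.1% within 5 kb, 85.9% within 20 kb and 56.5% at 48h alone.

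For genes at early-leaning baits, counts are given as lower and higher. With median-of-ratios scaling they were 10 and 9 at 1h, 48 and 28 at 12h and 91 and 39 at 48h. With a pseudocount of 1 they were 1 and 19 at 1h, 15 and 31 at 12h, and 81 and 20 at 48h. With a log2 fold change beyond 2 they were 1 and 9 at 1h, 8 and 15 at 12h, and 52 and 13 at 48h. At baits with at least 3 early-only contacts they were 13 and 98, 73 and 121, and 293 and 68 (829 genes tested), and with at least 10 they were 1 and 9, 4 and 6, and 16 and 3 (37 tested). With contacts that had a neighbour left out they were 0 and 5, 1 and 3, and 8 and 0 (18 tested). The 3 genes lower at 1h were 1 with a mean TPM of at least 1 and 5 without a fold threshold. Leaving out 1 library at a time gave 1 to 3 and 34 to 44 at 1h, 22 to 31 and 39 to 50 at 12h, and 103 to 123 and 24 to 27 at 48h. The lowest count of genes lower at 1h, 1, came without 1h replicate 1. The causes were not tested, and the remaining alternatives kept each count within 1.5 times.

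With the replicate number as a block, counts were 3 and 44 at 1h, 28 and 50 at 12h and 118 and 26 at 48h, and no call of a named gene changed. Whether the numbers pair the libraries was not settled by the check made. Correlations of deviations between time points had a median of 0.07 for same-numbered libraries (-0.01 to 0.26). For the others the median was -0.05 (-0.18 to 0.11). The same-numbered values were thus somewhat higher, with overlapping ranges. Of 29 named genes tested, no called gene changed direction, but 4 genes that were not called changed sign. With the scaling, Gtf2a1 went from -0.18 to 0.22 and Mapk11 from -0.08 to 0.30. Leaving out 1 library took Bin3 from 0.07 to as low as -0.11 and Gm26890 from 0.02 to as low as -0.16. Scaling took 3 out of the calls, a pseudocount of 1 took 4, fitting only the 6 libraries took 2, and leaving out 1 library took at most 3.

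Each list merges 2 replicates, so no contact has a replicate error, and 39.9% of the early-only contacts had a 0h score under 6. The number of read pairs behind each list was not used here.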
